A study of Mus musculus with 70 samples.

Results

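Matrix metalloproteinases (MMPs) and their tissue inhibitors (TIMPs) were followed through mouse livers and liver macrophages in a study of macrophage osteopontin in NASH, a fatty liver disease with inflammation and scarring. The 9 genes were taken by symbol: Mmp2, Mmp8, Mmp9, Mmp12, Mmp13, Mmp14, Timp1, Timp2 and Timp3, out of 23839 genes in the male liver count table and 24982 genes in each of the female liver and macrophage count tables. RNA-seq was made from total liver lysate and from liver resident macrophages carrying the label F4/80highCD11blow, after 24 weeks on a NASH diet or a control diet. KI animals carried OpnKI Mye, a knock-in of osteopontin (Opn, gene symbol Spp1) in myeloid cells. The animals called WT in the sample titles had the genotype Lyz2.Cre+/+, so they carry a Cre driven by the lysozyme 2 gene and are not free of transgenes. That driver acts in the myeloid lineage, which takes in neutrophils and monocytes as well as Kupffer cells. Age and strain were not in the labels.

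The 70 libraries fell into 16 groups of tissue, sex, genotype and diet. Each group held 4 libraries, except the NASH diet macrophage groups, with 5 libraries in each male group and 6 in each female group. The labels do not say that the libraries of a group came from separate animals, so p-values measure only the spread between these libraries.

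MMPs are zinc-dependent proteases that cut collagens, elastin and other matrix proteins. They are made as inactive precursors, are opened by other proteases, and are blocked by TIMPs, which bind the active site. In liver, the gelatinase Mmp2 and the inhibitor Timp1 are classically products of activated stellate cells, Mmp8 and Mmp9 are stored by neutrophils, and Mmp12 and Mmp13 are made by macrophages during scar formation and its removal.

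Mmp12 and Mmp13 are neighbours on chromosome 9 and gave the widest differences between groups, so their start regions are shown. Each window runs from 250 bases before to 50 bases after a RefSeq start site on the plus strand of GRCm38.p6. Capitals mark TGANTCA, the AP-1 core, and TATAAA, the TATA box core.

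Mmp12, second start, chr9:7347124-7347423: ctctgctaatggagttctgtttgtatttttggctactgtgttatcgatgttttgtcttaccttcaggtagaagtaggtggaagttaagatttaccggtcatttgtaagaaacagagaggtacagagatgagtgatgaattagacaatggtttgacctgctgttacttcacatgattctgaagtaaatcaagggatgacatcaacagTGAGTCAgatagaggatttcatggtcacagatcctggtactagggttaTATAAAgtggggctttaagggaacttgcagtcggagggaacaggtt
Mmp13, chr9:7272264-7272563: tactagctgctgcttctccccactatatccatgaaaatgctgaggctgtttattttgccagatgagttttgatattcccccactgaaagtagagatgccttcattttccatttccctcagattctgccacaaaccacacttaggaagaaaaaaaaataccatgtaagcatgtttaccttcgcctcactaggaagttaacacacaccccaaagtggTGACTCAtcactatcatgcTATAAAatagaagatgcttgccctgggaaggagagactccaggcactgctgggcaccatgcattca

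Both windows held 1 copy of each motif. The AP-1 core began at position -44 from the Mmp12 start and at -35 from the Mmp13 start. The TATA core began at 4 and at -16. TGANTCA is its own reverse complement and was found in 2565 of 32851 such windows (7.81%), and TATAAA on either strand in 4473 (13.6%). The other Mmp12 window, at chr9:7344147-7344446, held neither. The windows of Mmp14, Timp1, Timp2 and Timp3 held no TGANTCA, nor did that of Mmp8, which held TATAAA on the reverse strand. Mmp2 and Mmp9 were not matched. A match is a run of letters, not a measured binding site.

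Library totals ran from 11245097 to 29966174 counts in liver and from 16512356 to 26244679 in macrophages. Levels are given as CPM, counts scaled to a common library total. The sorted cells carried Kupffer markers, summing to 16100 to 40900 CPM over 7 genes, against 231 to 781 CPM in liver. Spp1 stood at 43.7 to 198.6 CPM in male KI NASH macrophages, against 5.72 to 55.91 CPM in male WT NASH macrophages. On control diet it stood at 7.12 to 11.26 CPM in male KI macrophages, against 0.268 to 0.516 CPM in male WT ones. In male liver on NASH diet it ran the other way, with 22.2 to 65.8 CPM in KI against 133.4 to 697.9 CPM in WT. Male liver WT control libraries 3 and 4 differed by less than sampling noise (mean chi-square 0.0671, against 2.05 to 11.92 in 121 other pairs) and were counted as 1 library, so that group has n = 3. That library, and male macrophage WT control 4, carried Xist at 446.4 CPM or more and Ddx3y at most 0.472 CPM, against their male label. In 10 of the 38 macrophage libraries Lyz2 was at 43.3 to 165.6 CPM, against 1473 to 3782 CPM in the other 28. Among females these were KI NASH 3 and 4, KI control 1, 2 and 3, and WT control 1, 3 and 4, and among males KI control 3 and WT control 4. Where a call was lost without these libraries, that is stated. Most other results have no such value here, among them the male KI macrophage diet calls and KI against WT on control diet in macrophages. In male NASH livers Lyz2 was at 139.3 to 310.5 CPM in WT, against 1.101 to 54.85 CPM in KI. Male control livers had 33.45 to 96.04 CPM in WT and 0.4802 to 26.8 CPM in KI. Female WT livers had 1.053 to 2.583 CPM (control diet) and 1.401 to 2.148 CPM (NASH diet). Female KI livers had 19.86 to 43.37 CPM (control diet) and 1.255 to 68.95 CPM (NASH diet). Genotype and Lyz2 level thus ran together in male NASH liver, and the part of Lyz2 level was not tested.

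In liver, the membrane protease Mmp14 and the inhibitors Timp2 and Timp3 led the 9 genes in all 8 groups when levels were divided by exon length. Mmp14 averaged 6.81 ± 1.49 CPM per kb in male KI NASH liver (SD, n = 4) and 12.0 ± 0.961 CPM per kb in female WT control liver (SD, n = 4). In macrophages on control diet the leader was Timp2, at 60.9 ± 8.16 CPM per kb in male KI cells and 60.3 ± 6.98 CPM per kb in male WT cells (SD, n = 4 each). Female KI control macrophages were the exception, with Mmp9 at 52.8 ± 56.1 CPM per kb beside Timp2 at 49.97 ± 1.18 CPM per kb (SD, n = 4). On NASH diet Mmp12 led in all 4 macrophage groups, from 63.8 ± 67.8 CPM per kb in male WT cells (SD, n = 5) to 133.9 ± 81.6 CPM per kb in male KI cells (SD, n = 5).

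**Figure D1:**
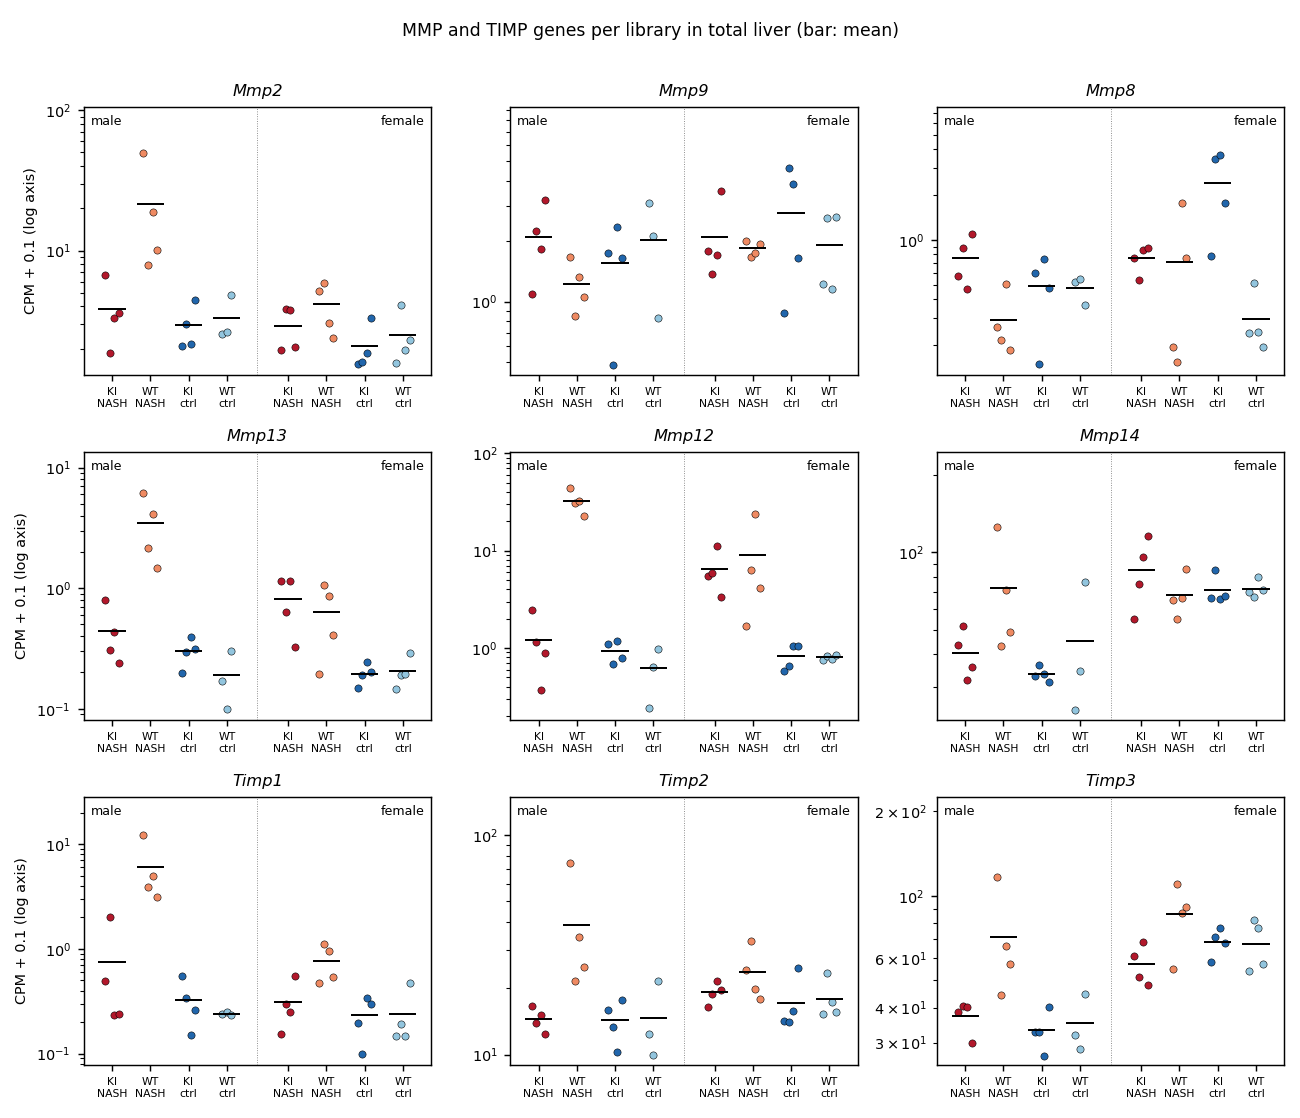
CPM of each gene in every liver library on a log axis of CPM + 0.1, male groups left and female groups right, one point per library and a bar at the group mean. In male WT NASH livers Mmp12 lies at 22.5 to 44.17 CPM, Mmp13 at 1.37 to 6.01 CPM and Timp1 at 3.02 to 12.23 CPM, above every other male liver library.

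**Figure D2:**
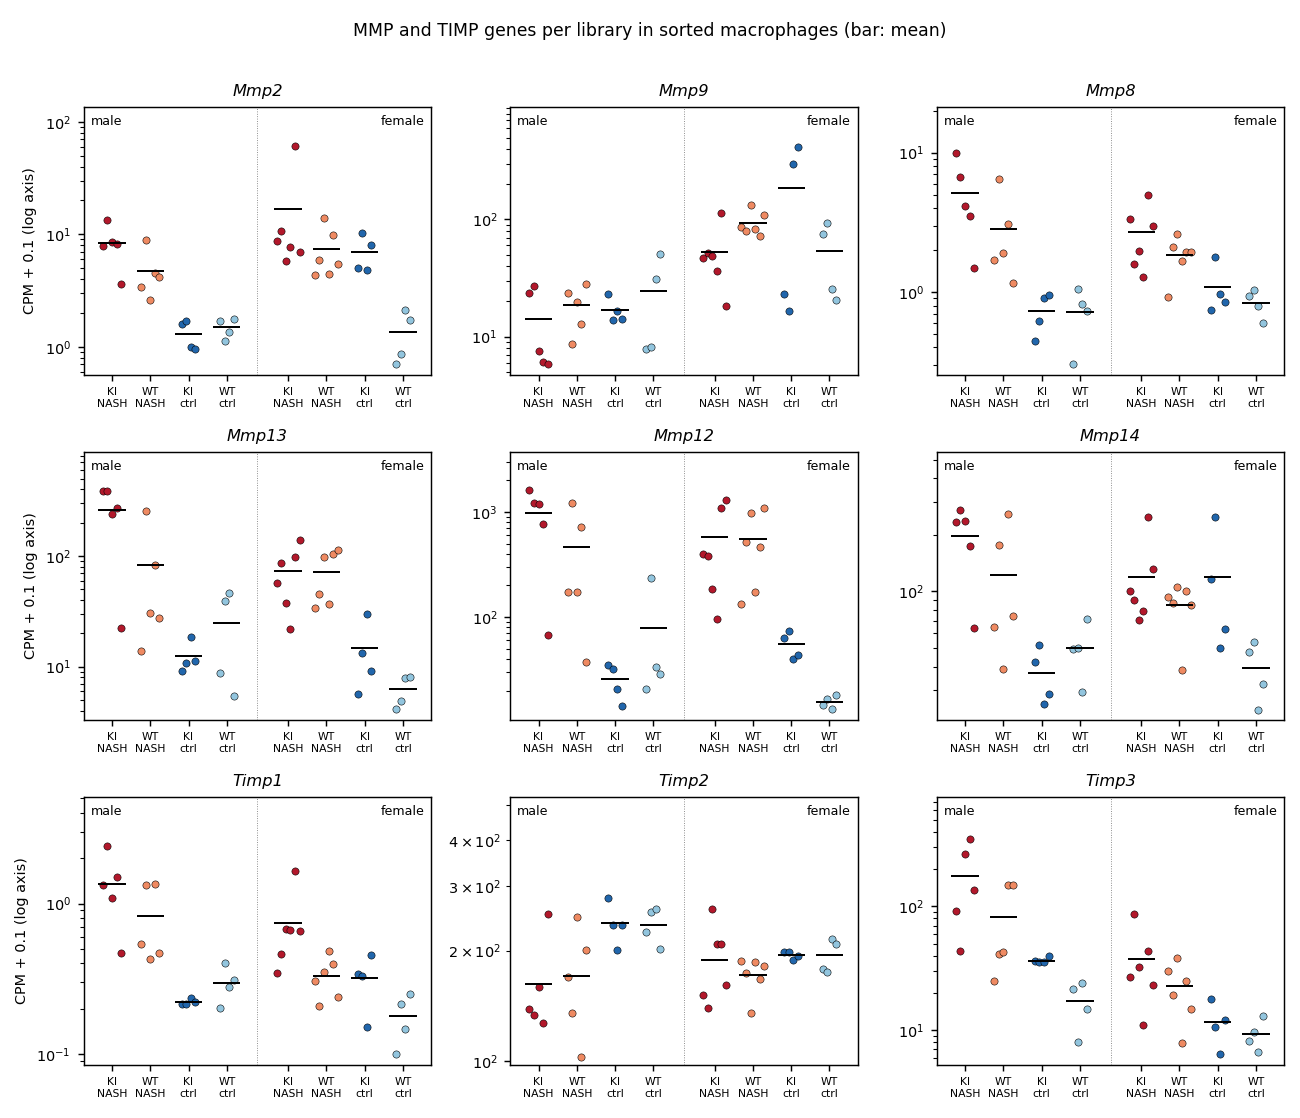
The same plot for the macrophage libraries, with CPM + 0.1 on a log axis, one point per library and a bar at the group mean. Mmp12 on NASH diet spans 37.75 to 1629 CPM, while Timp2 lies between 102.6 and 278 CPM in all 8 groups.

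Differences were tested on the counts with edgeR's quasi-likelihood test and Benjamini-Hochberg adjustment over all genes tested, and a gene was called at an adjusted p under 0.05. Fold changes are on the log2 scale. Their standard error (SE) was taken as the absolute change divided by the square root of the test's F statistic. Groups without overlap also occur over all genes tested. In male liver they made up 24.1% (NASH higher, WT) and 24.2% (KI lower, NASH diet). In female liver they made up 21.7% (NASH higher, KI), 4.27% (NASH higher, WT) and 4.05% (KI higher, control diet). In macrophages they made up 13.8% (NASH higher, male KI) and 8.42% (NASH higher, male WT). For KI higher on control diet they made up 6.68% (male) and 7.05% (female). Between tissues most genes of either kind were called. In female WT control macrophages against female WT control liver, 7 of 9 genes were called, on a background of 82.8% of all genes. There, 4 of 9 were higher in macrophages on a background of 39.9%, and 3 of 9 lower on one of 42.9%, so the 9 genes were called about as often as all genes. The higher ones were Mmp9 (4.42 ± 0.77), Mmp12 (4.00 ± 0.84), Mmp13 (5.33 ± 0.87) and Timp2 (2.97 ± 0.20). Timp3 had 8.15, 9.62, 6.57 and 12.85 CPM in macrophages against 53.82, 81.7, 76.97 and 56.97 CPM in liver, with no overlap. That was so for 31% of all genes. The lower genes were Timp3 (-3.34 ± 0.45), Mmp14 (-1.33 ± 0.39) and Mmp2 (-1.42 ± 0.62, adjusted p = 0.0359). With macrophage libraries of Lyz2 below 1000 CPM left out, only 1 WT control macrophage library remained. Mmp14 was then at -0.85 and Mmp2 at -2.10, and neither was called. The Mmp2 call was also lost when counts were scaled by library size only (adjusted p = 0.172) and without macrophage WT control 1 or 2 or liver WT control 2 (adjusted p 0.0863 to 0.157), and Mmp8 (1.40 ± 0.70, adjusted p = 0.0661) was called without liver WT control 2 (adjusted p = 0.0229) or with library size only (adjusted p = 0.0152).

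In male WT NASH macrophages against male WT NASH liver, 7 of 9 genes were called, on a background of 80.5%, with 5 higher (background 40%) and 2 lower (background 40.5%). Mmp8 (3.34 ± 0.67), Mmp9 (3.61 ± 0.64), Mmp12 (3.40 ± 0.85), Mmp13 (4.22 ± 0.82) and Timp2 (1.76 ± 0.28) were higher in macrophages. Mmp2 (-2.59 ± 0.43) and Timp1 (-3.44 ± 0.59) were lower, and every macrophage library had less Timp1 than every liver library, as was so for 27.8% of all genes. Mmp14 (0.34 ± 0.42, adjusted p = 0.458) and Timp3 (-0.22 ± 0.45, adjusted p = 0.66) were not called. Each tissue had its own RNA extraction kit, so kit and tissue cannot be told apart.

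Within a tissue, 7 of the 9 genes were called for KI against WT in male liver on NASH diet and for NASH against control in male KI macrophages, and 6 for NASH against control in male WT liver. In male liver NASH against control gave 0 of 9 genes in KI and 6 higher of 9 in WT. The KI background was 0%, where 847 of 12988 genes passed an unadjusted p of 0.05, none of the 9 among them, and DESeq2 called 0 of the 9. The WT background was 11.3% called higher and 21% in all. The median change over the 9 genes was 0.40 in KI and 1.14 in WT, beside 0.01 and -0.01 over all genes. Without WT control 2 the WT count was 3 (Mmp12, Mmp13 and Timp1), and without the merged WT control library 3 and 4, whose sex genes go against its label, it was 8, of which Mmp9 was lower. KI against WT on NASH diet gave 6 lower and 1 higher of 9, on backgrounds of 17.4% and 19.6%, with 37% of genes called in all and a median of -1.21 over the 9 genes, beside -0.02 over all genes. The same contrast on control diet gave 0 of 9, on a background of 4.67%, with 0 of the 9 at an unadjusted p under 0.05 and 0 called by DESeq2. The diet effect in KI minus that in WT was called for 1 of 9, Mmp12, which was lower, on a background of 0.577% called lower and 1.13% in all. The count was 2 without the merged WT control library (Mmp13 added) or without KI NASH 2 (Timp1 added).

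Female liver showed fewer calls, and Timp1 fell under the low-count filter there, so 8 of the 9 were tested. NASH against control gave 2 higher of 8 genes in KI, on a background of 4.21% called higher and 8.83% in all. Mmp13 dropped out without any 1 of KI control 1 to 4 or KI NASH 1 or 2, and both dropped out without KI NASH 3. In WT it gave 0 of 8, on a background of 0.0526%, although 2 of the 8 passed an unadjusted p of 0.05 and 1, Mmp12, was called by DESeq2. The WT NASH livers were uneven, with a mean chi-square of 6.08 to 7.565 between libraries 1 or 2 and libraries 3 or 4. It was 3.63 between 1 and 2, and 3.18 between 3 and 4. For KI against WT the count was 0 of 8 on NASH diet, on a background of 0.0901%, with 1 at an unadjusted p under 0.05 and 0 in DESeq2. With control diet 1 of 8 was higher, on a background of 4.04% called higher and 7.57% in all, and 0 without WT control 1 or 3. The diet effect in KI minus that in WT gave 0 of 8, on a background of 4.77%, with 2 at an unadjusted p under 0.05 and 1, Mmp8, in DESeq2.

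In male macrophages NASH against control gave 7 higher of 9 genes in KI, on a background of 15.1% called higher and 24% in all, and 2 higher of 9 in WT, on backgrounds of 5.36% and 8.19%. The median change over the 9 genes was 2.73 in KI and 1.64 in WT, beside 0.01 over all genes in each. Without any 1 of WT control 2, 3 or 4, the last with sex genes against its label, the WT count was 0. It was 1 without WT control 1, WT NASH 4 or any 1 KI control library, 5 without WT NASH 3 and 4 without KI NASH 5. KI against WT gave 0 of 9 on NASH diet, on a background of 3.13%, with 1 at an unadjusted p under 0.05 and 0 in DESeq2. The control diet contrast gave 0 of 9, on a background of 0%, with 0 at an unadjusted p under 0.05 and 0 in DESeq2. The difference between the diet effects gave 0 of 9, on a background of 0%, with 1 at an unadjusted p under 0.05 and 0 in DESeq2, so the 7 calls in KI and 2 in WT are not shown to differ.

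In female macrophages NASH against control gave 2 higher of 9 genes in KI, on a background of 1.79% called higher and 2.31% in all, and 4 higher of 9 in WT, on backgrounds of 8.44% and 12.9%. The KI count was 0 without KI control 1, 3 or 4, 1 without KI control 2 or KI NASH 2, 5 or 6, and 4 without KI NASH 4. The WT count was 2, Mmp12 and Mmp13, without WT control 1 or 2. KI against WT gave 0 of 9 on NASH diet, on a background of 0.561%, with 2 at an unadjusted p under 0.05 and 0 in DESeq2. It gave 0 of 9 on control diet, on a background of 4.64%, with 5 at an unadjusted p under 0.05 and 2, Mmp2 and Mmp14, in DESeq2. The difference between the diet effects gave 0 of 9, on a background of 0.288%, with 2 at an unadjusted p under 0.05 and 0 in DESeq2. Most female control libraries had Lyz2 below 1000 CPM, while every female WT NASH library had at least 2067 CPM. Diet and Lyz2 level therefore cannot be fully told apart in these female comparisons. With macrophage libraries of Lyz2 below 1000 CPM left out, 1 KI control and 1 WT control library remain, and these female diet calls were lost. The log2 fold changes had the same direction: Mmp12 was at 4.21 in KI (3.36 with all libraries) and 5.1 in WT (5.21), Mmp13 at 3.43 in KI (2.33) and 3.93 in WT (3.62), Mmp2 at 3.28 in WT (2.59) and Mmp8 at 0.94 in WT (1.29).

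**Figure D3:**
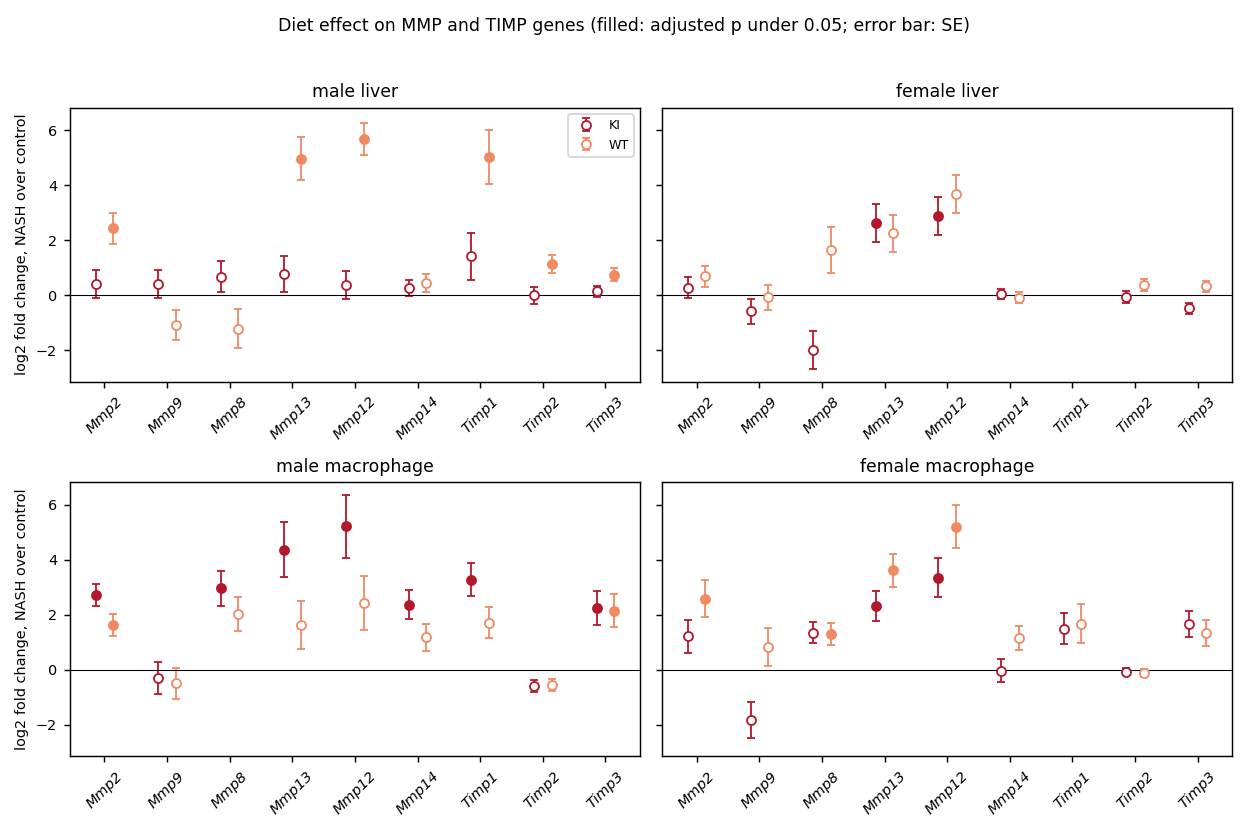
Log2 fold change of NASH over control diet with its SE for each gene, in 4 panels of tissue and sex, KI left of WT, with filled points at an adjusted p under 0.05. In male liver the WT points reach 5.68 for Mmp12 while the KI points reach at most 1.41, and in male macrophages 7 KI points are filled.

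Mmp12, macrophage elastase, lies at chr9:7344381-7369499 on the plus strand (GRCm38). In male liver it had 2.38, 1.04, 0.267 and 0.799 CPM in KI NASH, and 44.17, 30.84, 32.12 and 22.5 CPM in WT NASH. On control diet it had 0.997, 0.578, 1.08 and 0.694 CPM in KI, and 0.140, 0.545 and 0.866 CPM in WT. All 4 WT NASH livers were far above the rest, and the KI NASH livers overlapped the control livers. NASH against control was 0.38 ± 0.51 in KI (adjusted p = 0.965) and 5.68 ± 0.59 in WT (adjusted p = 0.000113). KI against WT on NASH diet was -4.67 ± 0.47 (adjusted p = 6.76e-05). The diet effect in KI minus that in WT was -5.30 ± 0.78 (adjusted p = 0.0123), and leaving out any 1 library kept the call, with values of -6.04 to -4.93.

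In female livers Mmp12 had 5.35, 5.75, 11.12 and 3.24 CPM in KI NASH, and 1.59, 6.30, 23.66 and 4.08 CPM in WT NASH. The control diet values were 0.486, 0.549, 0.959 and 0.951 CPM in KI, and 0.654, 0.732, 0.669 and 0.752 CPM in WT. Every NASH library was above every control library, and KI and WT overlapped on each diet. The diet difference was 2.89 ± 0.68 in KI (adjusted p = 0.0186), with an adjusted p of 0.0587 without KI NASH 3. In WT it was 3.68 ± 0.69 with an adjusted p of 0.0577, which fell to 0.0223 without WT NASH 1. Between genotypes on NASH diet, KI against WT was -0.59 ± 0.58 (adjusted p = 0.707) and turned to 0.64 without WT NASH 3. The female minus male difference in that contrast was 4.07 ± 0.79 (adjusted p = 0.00134), where 2 of 9 genes were called higher on a background of 5.26% called higher and 14% in all. Sex and cohort cannot be told apart in liver, as male and female livers came in separate tables. The female minus male difference in the WT diet effect was called for 0 of 9 in liver, on a background of 1.68%, with 4 at an unadjusted p under 0.05 and 0 in DESeq2. In macrophages it was called for 0 of 9, on a background of 0.0224%, with 1 at an unadjusted p under 0.05 and 0 in DESeq2. That of KI against WT on NASH diet in macrophages was called for 0 of 9, on a background of 4.37%, with 0 at an unadjusted p under 0.05 and 0 in DESeq2.

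In male macrophages Mmp12 had 1629, 1210, 1180, 759.8 and 66.86 CPM in KI NASH, and 173.1, 1202, 173.3, 721.5 and 37.75 CPM in WT NASH. With control diet it had 35.3, 32, 20.81 and 14.11 CPM in KI, and 20.53, 235.3, 33.44 and 28.54 CPM in WT. Every KI NASH library was above every KI control library, while WT control 2 lay among the WT NASH libraries. The change on NASH diet was 5.22 ± 1.15 in KI (adjusted p = 0.00421) and 2.43 ± 0.99 in WT (adjusted p = 0.137). KI against WT on NASH diet was 1.08 ± 0.87 (adjusted p = 0.542), and the difference between the diet effects was 2.79 ± 1.33 (adjusted p = 0.414).

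In female macrophages on NASH diet Mmp12 ran from 95.03 to 1290 CPM with a median of 389.8 CPM in KI, and from 132.4 to 1099 CPM with a median of 487.9 CPM in WT. Control diet gave 62.9, 73.04, 40.28 and 43.65 CPM in KI, and 14.59, 16.56, 13.41 and 18.08 CPM in WT. The control genotypes did not overlap and the NASH genotypes did. NASH against control was 3.36 ± 0.70 in KI (adjusted p = 0.0243) and 5.21 ± 0.78 in WT (adjusted p = 0.000789). The KI call was lost without KI control 1, 3 or 4 (adjusted p 0.0523 to 0.0966). For control diet, KI against WT was 1.82 ± 0.70 (adjusted p = 0.131).

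Mmp13, the chief interstitial collagenase of the mouse, lies at chr9:7272514-7283331 on the plus strand. In male liver it had 0.693, 0.209, 0.334 and 0.141 CPM in KI NASH, and 6.01, 2.06, 3.98 and 1.37 CPM in WT NASH. On control diet it had 0.0997, 0.193, 0.295 and 0.213 CPM in KI, and 0.0698, 0 and 0.200 CPM in WT, where the count of 0 allows up to 0.149 CPM. The WT NASH livers stood above all others, on 33 to 111 counts a library against 3 to 16 counts in KI NASH and 0 to 3 counts in WT control. The diet difference was 4.97 ± 0.79 in WT (adjusted p = 0.00151), and KI against WT on NASH diet was -3.02 ± 0.55 (adjusted p = 0.00114). The difference between the diet effects was -4.19 ± 1.08 (adjusted p = 0.0786), and it was called without the merged WT control library 3 and 4.

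In female liver Mmp13 had 1.04, 0.540, 1.05 and 0.223 CPM in KI NASH, and 0.0934, 0.969, 0.761 and 0.307 CPM in WT NASH. On control diet the range was 0.0486 to 0.144 CPM in KI livers, against 0.0467 to 0.188 CPM in WT livers. The KI diet groups did not overlap, on 4 to 21 counts a library in NASH and 1 to 3 counts in control, and NASH against control was 2.62 ± 0.69 in KI (adjusted p = 0.03). Without any 1 of KI control 1 to 4 or KI NASH 1 to 3 the adjusted p was 0.0518 to 0.0824. In WT the difference was 2.25 ± 0.69 (adjusted p = 0.168). The female minus male difference in KI against WT on NASH diet was 3.38 ± 0.79 (adjusted p = 0.0057).

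Macrophages held far more Mmp13. In male cells it had 384.6, 387.3, 238.4, 272.8 and 22.42 CPM in KI NASH, and 13.74, 257.1, 30.35, 82.14 and 27.47 CPM in WT NASH. The control diet values were 9.07, 10.63, 18.29 and 11.2 CPM in KI, and 8.65, 38.9, 46.61 and 5.35 CPM in WT. All KI NASH libraries were above the KI control libraries, and the WT diet groups overlapped. The change on NASH diet was 4.38 ± 0.99 in KI (adjusted p = 0.0051) and 1.64 ± 0.87 in WT (adjusted p = 0.256).

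In female cells on NASH diet it ran from 21.7 to 138.4 CPM with a median of 71.22 CPM in KI, and from 33.82 to 113.9 CPM with a median of 71.84 CPM in WT. With control diet it had 5.56, 13.31, 30.04 and 9.1 CPM in KI, and 4.08, 4.84, 7.81 and 7.97 CPM in WT. NASH against control was 2.33 ± 0.54 in KI (adjusted p = 0.0349), with an adjusted p of 0.0569 to 0.0859 without any 1 of KI control 1 to 4 or KI NASH 2, 5 or 6, and 3.62 ± 0.59 in WT (adjusted p = 0.00153).

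Mmp8, neutrophil collagenase (chr9:7558456-7568485, plus strand), was the member called higher in KI than in WT male liver on NASH diet. It had 0.476, 0.783, 0.367 and 0.987 CPM in KI NASH, and 0.162, 0.115, 0.407 and 0.0829 CPM in WT NASH. KI was higher by 1.86 ± 0.61 (adjusted p = 0.0288), although WT NASH 3 lay inside the KI range. The call was lost without WT NASH 1, 2 or 4 or KI NASH 2 or 4 (adjusted p 0.0607 to 0.076). It rests on 11 to 21 counts a library in KI and 2 to 9 counts in WT.

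In female liver on control diet Mmp8 had 0.680, 3.34, 3.55 and 1.65 CPM in KI, and 0.14, 0.412, 0.143 and 0.0939 CPM in WT. The groups did not overlap and KI was higher by 3.60 ± 0.80 (adjusted p = 0.0171), with an adjusted p of 0.0522 without WT control 1 or without WT control 3. Neutrophil markers moved beside it: 2 of the 6 tested were higher in KI, on a background of 4.04% of all genes. The sum over 10 markers was 10.9 to 54.1 CPM in KI livers, against 7.65 to 16.1 CPM in WT livers, and Ly6g was at 0 in all WT control livers. Their part in the result was not tested. On NASH diet Mmp8 had 0.655, 0.442, 0.751 and 0.781 CPM in KI, and 0.0934, 0.0538, 1.65 and 0.658 CPM in WT. The difference between the diet effects was -3.64 ± 1.1 (adjusted p = 0.0673), and it was called without KI control 1, WT NASH 1 or WT NASH 2.

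In male macrophages Mmp8 had 9.85, 6.53, 4.04, 3.43 and 1.38 CPM in KI NASH, and 0.344, 0.517, 0.809 and 0.848 CPM in KI control. Without overlap, NASH was higher by 2.96 ± 0.63 (adjusted p = 0.00362). In WT it had 1.59, 6.35, 1.79, 2.97 and 1.07 CPM on NASH diet and 0.205, 0.947, 0.714 and 0.630 CPM on control diet. That difference was 2.03 ± 0.62 with an adjusted p of 0.0514, which fell to 0.0298 to 0.0485 without any 1 of WT NASH 1, 3 or 5 or KI NASH 1 or 5. In female WT macrophages it ran from 0.815 to 2.49 CPM with a median of 1.83 CPM on NASH diet, and had 0.838, 0.933, 0.689 and 0.498 CPM on control diet. The groups overlapped, and NASH was higher by 1.29 ± 0.40 (adjusted p = 0.041), a call lost without any WT control library or without WT NASH 2, 3, 5 or 6 (adjusted p 0.0579 to 0.111), and with no filter on low counts (adjusted p = 0.054). Neutrophil sums in male macrophages were 122 to 158 CPM in KI NASH and 163 to 181 CPM in KI control, where Camp, Ly6g, Mpo and Ngp were at 0. Of 3 markers tested there, 2 were higher and 1 lower on NASH diet, on a background of 15.1% called higher and 24% in all. In female WT cells the sums were 130 to 171 CPM on NASH diet and 159 to 188 CPM on control diet. Of these markers only Csf3r was called higher in macrophages than in liver. It was higher by 4.08 in male WT NASH, where 2 of 7 tested were lower, and by 4.26 in female WT control, where 6 of 8 were lower. A sum alone does not show that neutrophils were present.

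Mmp2, gelatinase A (chr8:92827291-92853420, plus strand), was highest in male WT NASH liver. In male livers it had 6.58, 1.77, 3.20 and 3.48 CPM in KI NASH, and 49.26, 7.85, 18.73 and 9.99 CPM in WT NASH. Control diet gave 1.99, 2.89, 2.07 and 4.38 CPM in KI, and 2.44, 2.53 and 4.73 CPM in WT. Every WT NASH liver was above every other male liver, and WT NASH 1 was the highest of all. The diet difference was 2.43 ± 0.57 in WT (adjusted p = 0.0106), with an adjusted p of 0.055 without WT control 2. Between genotypes on NASH diet, KI against WT was -2.26 ± 0.50 (adjusted p = 0.00361). Of the stellate cell markers 5 of 9 were lower in KI NASH than in WT NASH, on a background of 17.4% of all genes. Their sums were 420 to 517 CPM in KI NASH against 731 to 942 CPM in WT NASH. For diet in WT 2 of 9 were higher, on a background of 11.3% called higher. The WT control sums, at 456 to 876 CPM, overlapped those of WT NASH. The part of these markers in the result was not tested. In bulk liver, fewer cells of a type and less RNA per cell cannot be told apart. Female liver ranged from 1.46 to 5.82 CPM of Mmp2 with no call, beside stellate sums of 550 to 951 CPM.

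In male macrophages Mmp2 had 7.71, 13.31, 8.52, 8.07 and 3.53 CPM in KI NASH, and 1.49, 1.61, 0.899 and 0.848 CPM in KI control. In WT it had 3.34, 8.76, 2.50, 4.41 and 4.07 CPM on NASH diet, and 1.59, 1.03, 1.25 and 1.68 CPM on control diet. The diet groups did not overlap in either genotype. NASH was higher by 2.73 ± 0.41 in KI (adjusted p = 0.000708) and by 1.64 ± 0.39 in WT (adjusted p = 0.0228). The WT call was lost without WT control 2, 3 or 4 (adjusted p 0.0526 to 0.0729), of which 4 is the library whose sex genes go against its label. With Lyz2 of at least 1000 CPM the WT change was 1.77 (adjusted p = 0.0695).

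In female macrophages on control diet Mmp2 had 4.92, 10.15, 4.76 and 7.86 CPM in KI, and 0.610, 0.758, 2.02 and 1.64 CPM in WT. The groups did not overlap. KI against WT was 2.48 ± 0.71 with an adjusted p of 0.0524, which fell to 0.00357 without KI NASH 5, to 0.0457 without KI NASH 3 and to 0.0492 without WT NASH 3. On NASH diet it ran from 5.65 to 60.34 CPM with a median of 8.16 CPM in KI, and from 4.28 to 13.91 CPM with a median of 5.59 CPM in WT. The change on NASH diet was 1.23 ± 0.60 in KI (adjusted p = 0.265) and 2.59 ± 0.68 in WT (adjusted p = 0.0217), and the WT call was lost without WT control 1 or 2 (adjusted p 0.0678 and 0.0638). Of the stellate markers 5 of 9 were lower in KI control, where 4.64% of all genes were called in either direction. Their sums were 177 to 199 CPM against 254 to 452 CPM in WT control.

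Mmp9, gelatinase B (chr2:164940780-164955850, plus strand), was the member whose diet change was not called in any group. In liver it stayed between 0.386 and 4.53 CPM. In female macrophages on control diet it had 23.14, 16.46, 297.4 and 411.1 CPM in KI, and 74.99, 93.69, 25.26 and 20.27 CPM in WT, so a pair of KI libraries was far above the rest. On NASH diet it ran from 18.05 to 112.8 CPM with a median of 47.84 CPM in KI, and from 72.06 to 132.4 CPM with a median of 83.82 CPM in WT. NASH against control was -1.83 ± 0.66 in KI (adjusted p = 0.131), and KI against WT on control diet was 1.77 ± 0.76 (adjusted p = 0.176). In male macrophages it lay between 5.78 and 50.67 CPM. In male WT liver, NASH against control was -1.09 ± 0.55 (adjusted p = 0.171), and Mmp9 was called lower without the merged WT control library 3 and 4.

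Mmp14, the membrane-type protease that opens the Mmp2 precursor (chr14:54431612-54445364, plus strand), was abundant in both tissues. In male liver it had 43.34, 51.72, 31.64 and 35.56 CPM in KI NASH, and 125.4, 43.05, 71.24 and 48.9 CPM in WT NASH. WT NASH 1 was again the highest, and the groups overlapped. KI against WT was -0.63 ± 0.29 (adjusted p = 0.104). NASH against control in WT was 0.44 ± 0.32 (adjusted p = 0.333), and it was called higher without the merged WT control library. In male KI macrophages it had 232.7, 270.7, 237.2, 173.7 and 64.06 CPM on NASH diet, and 42.36, 52.16, 25.31 and 28.52 CPM on control diet. These groups did not overlap, and NASH was higher by 2.37 ± 0.52 (adjusted p = 0.00434). In WT it had 64.36, 176.2, 38.65, 258.9 and 74.14 CPM on NASH diet and 49.61, 50.26, 29.15 and 71.5 CPM on control diet, a difference of 1.19 ± 0.50 (adjusted p = 0.148). In female macrophages on control diet it had 116.5, 248.9, 50.15 and 62.86 CPM in KI, and 47.67, 53.76, 23.56 and 32.27 CPM in WT. KI against WT was 1.63 ± 0.47 (adjusted p = 0.0546), and it was called without KI control 3, KI control 4 or KI NASH 5.

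Timp1, an inducible secreted inhibitor (chrX:20870166-20874735, plus strand), was scarce except in male WT NASH liver. It had 0.390, 1.93, 0.134 and 0.141 CPM in KI NASH, and 12.23, 3.78, 4.84 and 3.02 CPM in WT NASH. On control diet it had 0.449, 0.241, 0.0492 and 0.160 CPM in KI, and 0.140, 0.149 and 0.133 CPM in WT. All 4 WT NASH livers were above the rest, and KI NASH 2 was the nearest to them. The diet difference was 1.41 ± 0.84 in KI (adjusted p = 0.88) and 5.03 ± 0.97 in WT (adjusted p = 0.00417). KI against WT on NASH diet was -3.04 ± 0.70 (adjusted p = 0.00433). The difference between the diet effects was -3.62 ± 1.35 (adjusted p = 0.165), and it was called without KI NASH 2.

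In female liver, where it was not tested, Timp1 had 0.0546, 0.196, 0.150 and 0.447 CPM in KI NASH, and 0.374, 1.02, 0.845 and 0.438 CPM in WT NASH. On control diet it ran from 0 to 0.240 CPM in KI livers, where the count of 0 allows up to 0.137 CPM, and from 0.0467 to 0.376 CPM in WT livers. In male macrophages it had 1.23, 2.32, 0.983, 1.39 and 0.367 CPM in KI NASH, and 0.115, 0.115, 0.135 and 0.121 CPM in KI control. The groups did not overlap, and NASH was higher by 3.28 ± 0.61 (adjusted p = 0.00179). In WT it had 0.438, 1.24, 0.326, 1.25 and 0.370 CPM on NASH diet and 0.102, 0.301, 0.179 and 0.210 CPM on control diet, a difference of 1.72 ± 0.56 with an adjusted p of 0.0668. That fell to 0.0433 without WT NASH 3 and to 0.0347 without KI NASH 5.

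Timp2, which both blocks MMPs and helps Mmp14 open the Mmp2 precursor (chr11:118301069-118355740, minus strand), stayed within 102.6 to 278 CPM in all macrophage libraries. In male liver it had 16.5, 13.88, 14.98 and 12.31 CPM in KI NASH, and 74.76, 21.55, 34.02 and 24.91 CPM in WT NASH. The groups did not overlap, and KI was lower with -1.21 ± 0.30 (adjusted p = 0.00682). The control diet values were 15.86, 13.25, 10.18 and 17.61 CPM in KI, and 12.36, 9.86 and 21.59 CPM in WT. NASH against control in WT was 1.14 ± 0.33 (adjusted p = 0.0277), with groups that overlapped at 21.55 and 21.59 CPM. It was 0.68 without WT NASH 1 (adjusted p = 0.0713), and the call was lost without WT control 1 or 2 as well (adjusted p 0.0907 and 0.123). In male macrophages it had 138.6, 133.2, 159.2, 126.7 and 251.1 CPM in KI NASH, and 278, 235.2, 200.4 and 235 CPM in KI control, a difference of -0.59 ± 0.23 (adjusted p = 0.068). Female macrophages ranged from 134.8 to 260.4 CPM, and NASH against control was -0.06 ± 0.13 in KI and -0.11 ± 0.13 in WT.

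Timp3, the inhibitor bound to matrix (chr10:86300372-86349506, plus strand), had 38.45, 40.29, 39.95 and 29.88 CPM in male KI NASH liver, and 116.4, 44.25, 66.31 and 57.31 CPM in male WT NASH liver. The groups did not overlap, and KI was lower with -0.74 ± 0.21 (adjusted p = 0.0128). With control diet it had 32.61, 32.63, 26.85 and 40.01 CPM in KI, and 31.84, 28.45 and 44.78 CPM in WT. NASH against control in WT was 0.75 ± 0.23 (adjusted p = 0.0311), and WT NASH 2 lay below the highest control. That call was lost without WT NASH 1, where it was 0.46 (adjusted p = 0.0865), and without WT NASH 3 or WT control 1 or 2 (adjusted p 0.0522 to 0.126). Exons of Timp3 share 1733 of their 8144 bases with Syn3, which reached at most 4.71 CPM.

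In male macrophages Timp3 had 91.23, 43.27, 266.7, 350 and 134.7 CPM in KI NASH, and 35.88, 35.21, 35.37 and 39.36 CPM in KI control. In WT it had 24.74, 41.28, 42.67, 150 and 148.9 CPM on NASH diet, and 21.61, 8.004, 23.93 and 14.84 CPM on control diet. Every NASH library was above every control library of its genotype, and KI control lay above WT control in every library. NASH was higher by 2.26 ± 0.61 in KI (adjusted p = 0.0138) and by 2.16 ± 0.62 in WT (adjusted p = 0.041). The WT call was lost without any 1 of WT control 1 to 4, KI control 1 to 4 or WT NASH 4 or 5 (adjusted p 0.0514 to 0.118). With Lyz2 of at least 1000 CPM it was 2.11 (adjusted p = 0.117). Sinusoidal endothelial markers were higher beside it in 4 of 6 genes in WT and 1 of 6 in KI, on backgrounds of 5.36% and 15.1%. Their sums were 977 to 2370 CPM in WT NASH against 682 to 1040 CPM in WT control. For control diet, KI against WT was 1.04 ± 0.62 (adjusted p = 0.825). In female liver, KI against WT on NASH diet was -0.65 ± 0.20 (adjusted p = 0.226).

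**Figure D4:**
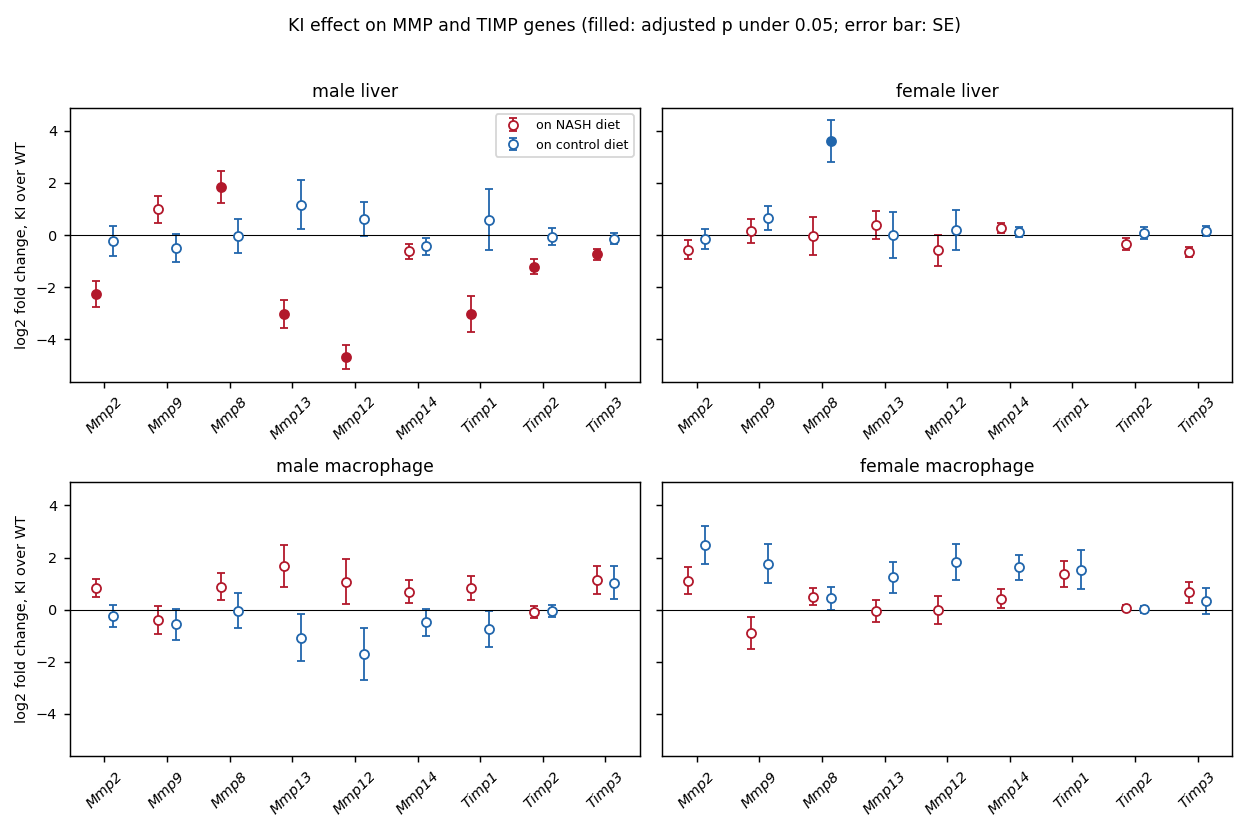
Log2 fold change of KI over WT with its SE for each gene, in 4 panels of tissue and sex, on NASH diet and on control diet, with filled points at an adjusted p under 0.05. In male liver on NASH diet 6 filled points lie below 0, down to -4.67 for Mmp12, and Mmp8 lies above at 1.86, while no point is filled in either macrophage panel.

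Markers of other cells were called in several of these comparisons, and their part in the results was not tested. For diet in male WT liver, 11.3% of all genes were called higher and 21% in all. For KI against WT male liver on NASH diet the shares were 17.4% lower and 19.6% higher. For diet in male macrophages they were 15.1% higher and 24% in all in KI, and 5.36% and 8.19% in WT. For diet in female macrophages they were 1.79% and 2.31% in KI, and 8.44% and 12.9% in WT. Counts such as 1 of 6 or 2 of 9 lie near some of these shares. In male WT liver on NASH diet, 4 of 6 lipid-associated macrophage markers were higher and 1 was lower, though their sums overlapped, at 181 to 770 CPM in NASH and 316 to 433 CPM in control. There 5 of 6 hepatocyte markers and 2 of 5 neutrophil markers were lower, 2 of 9 stellate markers were higher, and the cholangiocyte sum was 8.94 to 74.4 CPM in NASH against 4.11 to 6.46 CPM in control. In KI against WT male liver on NASH diet, 5 of 6 lipid-associated macrophage markers were lower, with sums of 139 to 211 CPM in KI livers against 181 to 770 CPM in WT livers, and 2 of 5 neutrophil markers were higher, with sums of 8.36 to 37.1 CPM in KI livers against 6.88 to 16.8 CPM in WT livers. Also lower there were 3 of 4 cholangiocyte markers (4.7 to 8.79 CPM in KI, against 8.94 to 74.4 CPM in WT), 2 of 5 recruited monocyte markers (7.2 to 19.4 CPM in KI, against 20.6 to 57.1 CPM in WT), 2 of 4 B and plasma cell markers and 1 of 6 sinusoidal endothelial markers, and 2 of 6 hepatocyte markers were higher. In male KI macrophages on NASH diet, 6 of 6 lipid-associated macrophage markers were higher, at 2060 to 6160 CPM against 1300 to 1750 CPM in control, and 5 of 7 Kupffer markers were lower, at 16100 to 32300 CPM against 34700 to 36600 CPM. Hepatocyte markers were higher there too, in 5 of 6 genes, at 418 to 2400 CPM against 172 to 256 CPM. T and NK cell markers were higher in 5 of 5 genes, at 2.02 to 13.7 CPM against 0.287 to 0.485 CPM in control. Of 5 recruited monocyte markers 3 were higher and 1 lower, with sums that overlapped (124 to 185 CPM, against 117 to 262 CPM in control). In male WT macrophages on NASH diet, 4 of 6 lipid-associated macrophage, 2 of 5 recruited monocyte and 2 of 5 T and NK cell markers were higher and 2 of 7 Kupffer markers lower. In female macrophages on NASH diet, lipid-associated macrophage markers were higher in 1 of 6 genes in KI and in 4 of 6 in WT. Hepatocyte markers were higher in 3 of 6 genes in KI (52.8 to 593 CPM on NASH diet, against 23.3 to 66.4 CPM on control diet) and in 4 of 6 in WT (203 to 1610 CPM, against 116 to 334 CPM). In KI 3 of 9 stellate markers were higher and 1 of 7 Kupffer markers lower, and in WT 3 of 7 Kupffer and 1 of 9 stellate markers were lower.

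**Figure D5:**
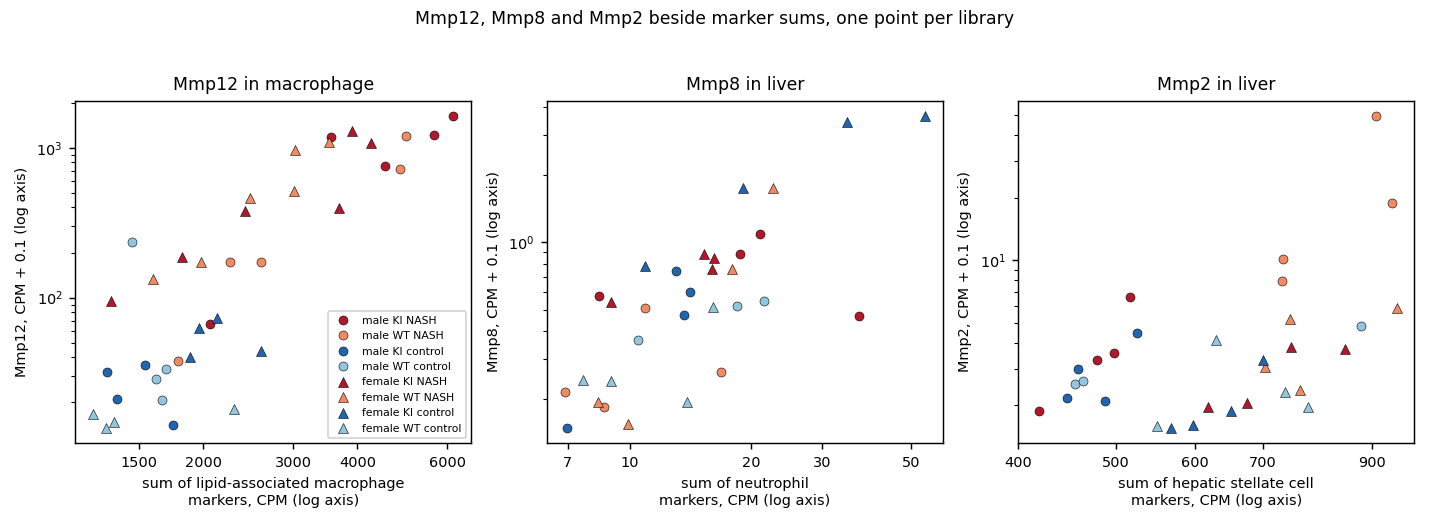
Each library as a point on log axes of CPM: Mmp12 against the summed lipid-associated macrophage markers in macrophages, Mmp8 against summed neutrophil markers in liver, and Mmp2 against summed stellate markers in liver, with circles for male and triangles for female. Male KI NASH macrophages reach 6160 CPM of the marker sum and 1629 CPM of Mmp12, and male WT NASH livers hold the highest Mmp2, at 7.85 to 49.26 CPM, with stellate sums of 731 to 942 CPM. Female livers have stellate sums of 550 to 951 CPM with Mmp2 at 1.46 to 5.82 CPM.

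Other genes of the MMP pathway were called in the same comparisons. In male WT liver on NASH diet, where 11.3% of all genes were called higher and 21% in either direction, other MMPs and Timp4 rose in 2 of 6 tested genes, Mmp27 (1.55 ± 0.35, adjusted p = 0.00919) and Mmp23 (1.41 ± 0.46, adjusted p = 0.0433). Of 11 genes of MMP activation and clearance 3 rose and 4 fell there. Plasminogen, Plg, fell (-0.99 ± 0.15, adjusted p = 0.00136), as did the membrane MMP inhibitor Reck (-1.51 ± 0.25, adjusted p = 0.0019), while the plasminogen activators Plat (3.65 ± 0.81, adjusted p = 0.00803) and Plau (1.5 ± 0.34, adjusted p = 0.00888) rose. Of 14 ADAM and ADAMTS proteases 8 rose, with Adamts12 (3.77 ± 0.78, adjusted p = 0.00562) and the procollagen-trimming Adamts2 (1.60 ± 0.35, adjusted p = 0.00764) first. The 10 substrates take in Spp1, the gene altered in KI. Of these 10, 9 rose and 1, fibronectin, Fn1, fell, with a median of 2.72 against -0.01 over all genes. Collagen genes Col3a1 (3.29 ± 0.48) and Col1a1 (3.65 ± 0.59) led them.

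KI against WT male liver on NASH diet, where 17.4% of all genes were called lower and 19.6% higher, gave 8 of 10 substrates lower, with Col3a1 at -2.84 ± 0.42 (adjusted p = 0.000303) and Fn1 higher at 1.46 ± 0.19 (adjusted p = 0.000134). The count and median of the substrates include Spp1, the gene altered by the knock-in. Of the ADAM group 7 of 14 were lower and 1 higher, and of the activation group 5 of 11 were higher and 4 lower. The clearance receptor Lrp1 was higher (1.17 ± 0.14, adjusted p = 0.000108), as was Reck (1.30 ± 0.24, adjusted p = 0.00107), and Plau was lower (-2.32 ± 0.32, adjusted p = 0.000187). The medians over these 3 lists were -2.1, -0.932 and 0.471, beside -0.0208 over all genes. This comparison and the WT diet comparison share the WT NASH livers.

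In male KI macrophages on NASH diet, where 15.1% of all genes were called higher, 3 of 7 other MMPs rose, led by Mmp15 (2.55 ± 0.61, adjusted p = 0.00711). Of 12 activation genes 8 rose. Of 14 ADAM and ADAMTS genes 10 rose, with Adam8 at 6.77 ± 1.25 (adjusted p = 0.00174), and of 10 substrates (Spp1 included) 9 rose, with Fn1 at 2.86 ± 0.52 (adjusted p = 0.00163). The medians were 1.67, 2.01, 1.81 and 3.05 in these 4 lists, beside 0.0125 over all genes. Mmp15 (-8.30) and Fn1 (-6.96) were far lower in male WT NASH macrophages than in male WT NASH liver. Hepatocyte markers rose beside them in male KI macrophages, in 5 of 6 genes with a median of 2.44. Whether RNA from hepatocytes had a part in the rise of Mmp15 and Fn1 was not tested. In female WT macrophages on NASH diet 1 of 4 other MMPs, 4 of 8 activation genes, 3 of 12 ADAM and ADAMTS genes and 2 of 9 substrates rose, on a background of 8.44% called higher. The medians of these lists were 0.56, 0.571, 0.149 and 0.895, beside -0.0142 over all genes.

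The chromosome 9 neighbours did not all follow Mmp12 and Mmp13. Mmp27, beside Mmp8 at chr9:7571396-7581885, averaged 73.2 ± 10.9 CPM in male KI NASH macrophages (SD, n = 5) and 57.0 ± 12.2 CPM in male KI control macrophages (SD, n = 4). It was called in no diet or genotype comparison of macrophages. In male liver it was higher on NASH diet in WT, as above, and lower in KI than in WT on NASH diet (-1.40 ± 0.31, adjusted p = 0.00342). Mmp12 shares 157 of 7237 exonic bases with Mmp1b, which was at 0 CPM in all 70 libraries.

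Across libraries, as a description without a test, Mmp12 and Mmp13 ran together in each set, with Pearson r of log2 CPM of 0.936 over 20 female macrophage libraries, 0.900 over 18 male ones, 0.905 over 16 female livers and 0.914 over 15 male livers. The libraries share diet groups, so r holds the group differences too. The genes nearest to Mmp12 in male macrophages were Cd63 (0.982), Chst11 (0.979) and Anpep (0.978), and in female macrophages Chst11 (0.978), Emp1 (0.966) and Dcstamp (0.962). Mmp2 in male liver lay nearest to Olfml3 (0.982), Fstl1 (0.982) and Adamts2 (0.977). Mmp8 in female liver lay nearest to Hars (0.931) and the neutrophil genes S100a8 (0.927) and S100a9 (0.920), and Mmp9 in male liver to S100a8 (0.918). Timp1 in male liver lay nearest to Spp1 (0.971), and Timp3 in male macrophages to Osmr (0.988), Acer2 (0.982) and the endothelial gene Flt1 (0.979).

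Over the 16 groups, Mmp12, Mmp13, Mmp8, Mmp14 and Timp3 had their highest mean in male KI NASH macrophages, and Mmp2 and Timp1 in male WT NASH liver. Mmp9 was highest in female KI control macrophages and Timp2 in male KI control macrophages. Neighbours in the order of group means mostly overlapped: of 15 neighbouring pairs per gene, the libraries were apart in 2 for Mmp13 and Timp2, in 1 for Mmp9, Mmp12 and Timp1, and in 0 for Mmp2, Mmp8, Mmp14 and Timp3.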

How the data were processed

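RNA-seq libraries were made with Illumina TruSeq Stranded mRNA from RNA isolated with illustra RNAspin Mini (liver) or Qiagen miRNeasy micro (macrophages), per the labels' protocols. The authors deposited raw counts per gene in 3 tables, with the build mm10 per the submitters' processing notes. No aligner or counter is named there, and whether counting used strand is not given in the sources used here. Total counts per library set the precision: low genes such as Mmp13 in liver rest on few counts.

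Counts were tested in R 4.3.3 with edgeR 4.0.16 and limma 3.58.1 (TMM, filterByExpr with a minimum count of 10 and total of 15, quasi-likelihood F-test, a term per group). Diet and genotype comparisons came from 1 fit per tissue and sex. Macrophages against liver came from a fit of both tissues of a sex, and female minus male from a fit of both sexes of a tissue. Each fit had its own filter and scaling. Printed CPM use the library total. Male liver WT control 3 and 4 were averaged. Groups came from genotype, diet, sex and tissue labels. Alternatives were DESeq2 1.42.0, other scalings, no filter, a replicate block, macrophage libraries with Lyz2 of at least 1000 CPM, and leaving out each library. The steps were tested on simulated data. Outside the 9 genes, at most 4 per list and comparison, those with the smallest adjusted p, were named. The members and lists were chosen with earlier results of these data known. Exon lengths came from GENCODE and start windows from RefSeq.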

Additional observations from a re-analysis of the deposited data

Results flagged for a closer look

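A library stood apart from its own group (Dixon's test at the 95% level) in 14 of 135 combinations of gene and group. About 1 in 20 is flagged by chance if values are normally distributed and independent. The test used CPM without a log, and several flags fall on the same library, so 14 of 135 does not by itself show an excess. In female KI NASH macrophages library 5 was the highest for Mmp2 (60.34 CPM, others 5.65 to 10.69), Mmp9 (112.8 CPM, others 18.05 to 51.46), Mmp14 (247.2 CPM, others 70.28 to 132.1) and Timp1 (1.55 CPM, others 0.247 to 0.579). In female WT NASH macrophages library 4 was low for Mmp14 (38.11 CPM, others 84.99 to 105.2). In male macrophages Mmp12 was high in WT control 2 (235.3 CPM, others 20.53 to 33.44), Mmp13 in WT NASH 2 (257.1 CPM, others 13.74 to 82.14), Timp2 in KI NASH 5 (251.1 CPM, others 126.7 to 159.2) and Timp3 in KI control 4 (39.36 CPM, others 35.21 to 35.88). In liver Timp1 was high in male KI NASH 2 (1.93 CPM, others 0.134 to 0.390) and female WT control 4 (0.376 CPM, others 0.0467 to 0.0915). Female liver KI control 2 was high for Mmp14 (85 CPM, others 65.75 to 67.44), KI control 4 for Timp2 (24.72 CPM, others 13.95 to 15.72), and WT control 2 for Mmp8 (0.412 CPM, others 0.0939 to 0.143).

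Effects differed between groups by edgeR's test of the difference in 3 cases. The diet effect on Mmp12 in male liver in KI minus that in WT was -5.30. The effect of KI against WT on NASH diet in liver, female minus male, was 4.07 for Mmp12 and 3.38 for Mmp13.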

How the results depend on the processing

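Counts of the 9 genes called moved under these settings. With DESeq2 they were 2 for the difference of diet effects in male liver (1 in edgeR), 1 for WT diet in female liver (0), 1 for the difference of diet effects in female liver (0), 5 for WT diet in male macrophages (2), 4 for KI diet in female macrophages (2) and 2 for KI against WT on control diet in female macrophages (0). No filter gave 1 for WT diet in female liver. With Lyz2 of at least 1000 CPM, 0 were called for WT diet in male and female macrophages and for KI diet in female macrophages, where fewer libraries entered. Leaving out 1 library gave 3 to 8 for WT diet in male liver (6 with all), 1 to 2 for the male liver difference, 0 to 1 for WT diet, 0 to 3 for KI diet, 0 to 1 for KI against WT on control diet and 0 to 2 for the difference in female liver, 0 to 5 for WT diet in male macrophages, and 2 to 5 for WT diet, 0 to 4 for KI diet and 0 to 2 for KI against WT on control diet in female macrophages. Deviations of same-numbered libraries correlated at -0.363 to 0.556, and those of other pairs at -0.486 to 0.554. These ranges do not settle whether the numbers pair libraries. The replicate block gave 2 for the male liver difference, 5 for WT diet in male macrophages, and 0 for KI diet and 2 for KI against WT on control diet in female macrophages. Under it Timp3 had an adjusted p of 0.0507 for WT diet in male macrophages, and in female macrophages Mmp8 had 0.0984 for WT diet, and Mmp12 0.0821 and Mmp13 0.0645 for KI diet.

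Alternatives were computed for 69 of the single gene changes, and among these 4 turned direction, all Mmp12 changes that were not called. KI against WT on NASH diet in female macrophages (-0.02) was 0.0335 with library size only, 0.44 with the Lyz2 minimum and -0.46 to 0.29 without 1 library. Without 1 library, the KI diet effect in male liver was -0.36 to 0.75, KI against WT on NASH diet in female liver -0.98 to 0.64, and the female liver difference of diet effects -1.17 to 0.44. Counts over all genes also moved: the 147 genes of the male liver difference ran from 82 to 719 across settings, and the 297 of KI diet in female macrophages from 2 to 946. The cause was not tested.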
